A study of Homo sapiens with 8 samples.

Results

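The mitochondrial respiratory chain and ATP synthase were followed at the level of messenger RNA in SKOV3, a human cell line from an ovarian cancer. Members were all features named as subunits of complexes I to V, with a few genes that share those names. They were 103 of 22554 features, namely 13 mitochondrially encoded subunits, 83 nuclear subunits and 7 associated genes. Of these, 96 of 15432 features passed the filter on low counts, with all 13 mitochondrially encoded subunits, 79 nuclear subunits and 4 associated genes among them.

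The LDL group held 4 samples given low-density lipoprotein (LDL), the main cholesterol carrier of blood, at 50 µg/mL for 48 h. The control group held 4 samples in ordinary medium. Both grew in McCoy's 5A medium with fetal bovine serum, so the controls also met serum lipoproteins, and the cells are 1 established line. Whether the 4 samples came from separate cultures is not given in the labels; a p-value here reflects the spread among the samples alone, and that spread may be technical.

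Electrons from NADH and succinate enter the chain at complexes I and II and pass through complexes III and IV to oxygen. Complexes I, III and IV pump protons, and ATP synthase, complex V, uses their return to make ATP. The mitochondrial genome encodes a few membrane core subunits of complexes I, III, IV and V, transcribed as long polycistronic RNAs that are cut into shorter messengers. The nucleus encodes all other subunits, and cells must match the output of both genomes when they assemble a complex.

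Several mitochondrial genes share bases, which bears on how their reads are counted. The sequences at 2 such junctions are shown, those of MT-ATP8 and of MT-ND4L. These 2 of 96 tested members were the only ones whose LDL and control values did not overlap, both lower in LDL. Among all features 1.71% were lower in LDL without overlap and 1.74% higher, so such a lack of overlap is not particular to these genes. Whether the shared bases bear on it was not tested. MT-ATP8 and MT-ATP6, both membrane subunits of ATP synthase, share 46 bases at chrM:8527-8572, and MT-ND4L and MT-ND4, membrane core subunits of complex I, share 7 bases at chrM:10760-10766 (GENCODE 29, GRCh38). The windows at chrM:8507-8592 and chrM:10740-10786, plus strand, hold the shared bases in capitals.
MT-ATP8 and MT-ATP6: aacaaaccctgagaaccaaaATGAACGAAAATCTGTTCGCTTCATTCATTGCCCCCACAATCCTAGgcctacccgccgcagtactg
MT-ND4L and MT-ND4: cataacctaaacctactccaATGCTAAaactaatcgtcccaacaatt
Both shared stretches open with the ATG start codon of the downstream gene. MT-ND5 at chrM:12337-14148 and MT-ND6 at chrM:14149-14673 abut on opposite strands. How the submitters' counting treated reads over shared bases is not given in the sources used here, so each partner's value is uncertain to that extent. The values are counts per gene and not per messenger. A difference between partners was therefore not read as a difference between separate messengers.

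Nuclear subunit genes are known for promoter sites of nuclear respiratory factor 1 (NRF1) and of ETS factors such as GABP, which couple them to mitochondrial output. The 250 bases before the start were searched on both strands in 67 of 83 nuclear subunits with a RefSeq promoter (GRCh38.p14). The NRF1 core GCATGCGC was present in 12 of these 67 promoters (17.91%), against 2.81% of all 27305 promoters, and the ETS core CCGGAAG in 17 (25.37%), against 8.82% of all promoters. AAGATGGC, the YY1 core, was present in 1 (1.49%), against 1.37%. Overlapping matches counted once per promoter. The 4 examples below, chosen to show the NRF1 and the ETS core, carry the match in capitals on the coding strand, and CTTCCGG is the ETS core on the opposite strand.
SDHB, chr1:17054199-17054258, minus strand: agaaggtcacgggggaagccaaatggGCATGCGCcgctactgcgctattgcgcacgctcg
COX6A1, chr12:120437869-120437928, plus strand: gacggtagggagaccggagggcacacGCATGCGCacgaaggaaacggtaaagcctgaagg
ATP5PD, chr17:75047037-75047096, minus strand: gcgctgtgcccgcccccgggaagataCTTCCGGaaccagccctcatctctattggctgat
NDUFB7, chr19:14572067-14572126, minus strand: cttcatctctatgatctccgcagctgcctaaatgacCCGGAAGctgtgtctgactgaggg
A match describes the letters in the window and is no evidence of a bound factor. The 12 tested genes with the NRF1 core had a median log2 fold change, LDL over control, of 0.06, against 0.05 for the 52 searched genes without it, and the 16 with the ETS core 0.06, against 0.05 for the 48 without it.

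Library totals ran from 34682501 to 36780334 counts in LDL samples and from 37189698 to 44883561 in control samples, so every LDL library was shallower. Features with a count above 0 numbered 17295 to 17610 per library. ERBB2, amplified in this line, averaged 2515 CPM (counts scaled to library size, TMM-normalised) (range 2219 to 3092) in LDL and 2590 CPM (range 2397 to 2700) in control samples, and CDKN2A, which the line has lost, had 0 counts in every library. LDL samples 1 and 4 both stood apart. The chi-square per degree of freedom was 18.5 to 28.9 between LDL sample 1 and the other LDL samples and 17.6 and 18.3 between LDL sample 4 and LDL samples 2 and 3, against 6.84 between LDL samples 2 and 3 and 8.47 to 14 between control samples. The main results are given with and without each of them.

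In these poly(A) libraries the mitochondrially encoded messengers were far more abundant per length than the nuclear ones. Whether both kinds were captured alike was not tested. On the FPKM scale (fragments scaled to feature length and library size, as deposited), the 13 mitochondrial subunits had a median of 2120 in LDL and 2270 in control samples, and the 79 tested nuclear subunits a median of 65.4 in LDL and 64.1 in control samples. The highest mitochondrial levels were those of the ATP synthase and complex IV subunits. MT-ATP8 averaged 4130 ± 184 FPKM in LDL and 4400 ± 66.3 FPKM in control samples, and MT-CO1, the catalytic subunit of complex IV, 4130 ± 88.1 and 4290 ± 145 FPKM in the same groups (SD, n = 4 each). MT-ND3, a small membrane subunit of complex I, had the lowest mean, 514 ± 67.2 FPKM in LDL and 568 ± 41.6 FPKM in control samples. Even that mean exceeded the highest nuclear one, 487 ± 12.5 FPKM in LDL and 479 ± 12 FPKM in control samples for ATP5F1B, the catalytic beta subunit of ATP synthase. In LDL samples 1 and 4, however, MT-ND3 had 460.4 and 453.3 FPKM, below ATP5F1B at 492.2 and 496.8 FPKM. In the other libraries it lay above ATP5F1B.

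**Figure D1:**
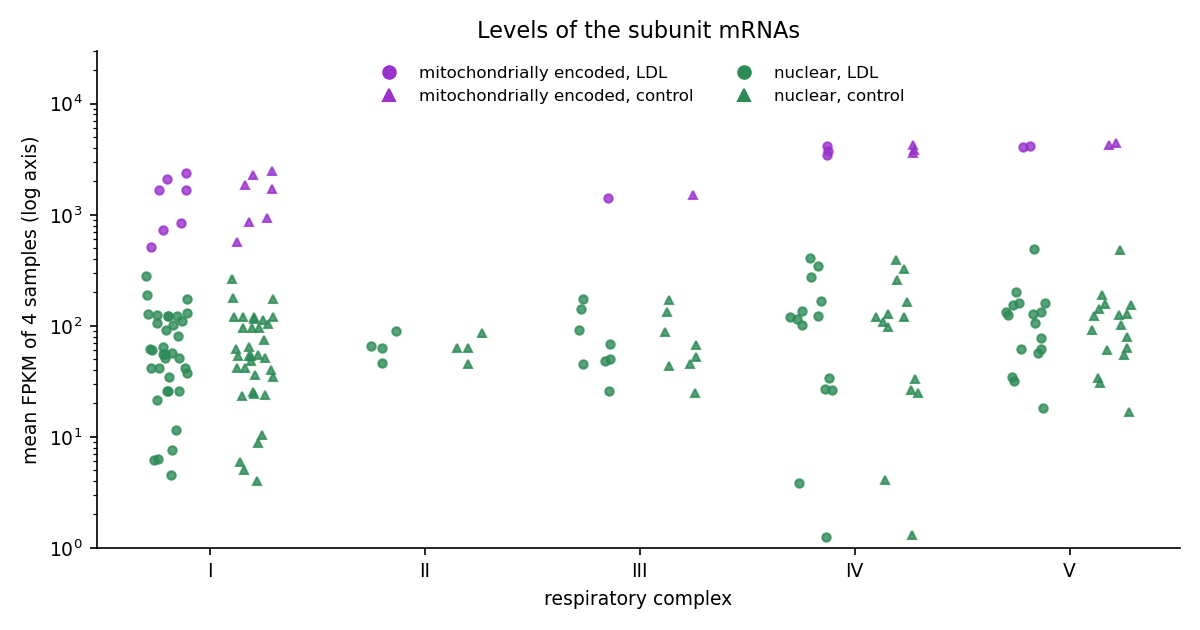
Mean FPKM of 4 samples (log axis) for each tested subunit by respiratory complex, LDL as circles on the left and control as triangles on the right of each complex. The means of the mitochondrially encoded subunits lie between 514 and 4130 FPKM in LDL samples, above the mean of every nuclear subunit, the highest of which is 487 FPKM.

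Nuclear subunits spread over a wide range, and isoforms of other tissues marked its lower end. COX4I1, the ubiquitous isoform of subunit 4 of complex IV, stood at 404 FPKM in LDL and 389 FPKM in control samples, while its lung-enriched isoform COX4I2 had 0.0581 CPM in LDL sample 2 and 0.0517 CPM in control sample 3 and 0 in the other libraries. COX6A1, the ubiquitous subunit 6A, stood at 344 FPKM in LDL and 327 FPKM in control samples, while COX6A2, its heart and muscle isoform, had 0 counts in all 8 libraries. COX7A1, the heart and muscle isoform of subunit 7A, was present at 3.81 FPKM in LDL and 4.08 FPKM in control samples, below COX7A2 at 122 FPKM in LDL and 120 FPKM in control samples. COX6B2, known from testis, stood between 1.046 and 1.542 FPKM in LDL and between 1.039 and 1.599 FPKM in control samples, on average the lowest of the tested nuclear subunits. COX7B2, another testis-enriched isoform, chosen after its value was seen, stood higher, at 26.5 ± 3.59 FPKM in LDL and 24.9 ± 2.68 FPKM in control samples. That was close to its ubiquitous paralog COX7B, at 21.93 to 29.61 FPKM in LDL and 24.97 to 29.71 FPKM in control samples, although COX7B had 63.08 CPM in LDL and 58.52 CPM in control samples against 15.49 CPM in LDL and 14.57 CPM in control samples for COX7B2. The FPKM of COX7B therefore rests on a long feature length used by the authors.

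Values of some further genes are uncertain for reasons in the deposited tables, and the examples here were chosen after their values were seen. UQCRH, the hinge subunit of complex III, had 5, 6, 8 and 13 counts in LDL samples 1 to 4 and 7, 5, 8 and 6 counts in control samples 1 to 4. Its transcript shares 505 of 516 aligned bases (97.87%) with the near-identical copy UQCRHL, which had 0, 19, 9 and 10 counts in LDL samples and 6, 4, 3 and 17 in control samples. Neither passed the filter, and no level of the subunit can be read from them. ATP5F1A, the alpha subunit of ATP synthase, had an FPKM of 248.8 in LDL sample 3, against 92.41 to 93.3 in LDL samples 1, 2 and 4 and 87.91 to 94.56 in control samples. Its CPM in LDL sample 3 was 546.5, within the 529.2 to 570 CPM of the control samples, so the high FPKM was not in the counts. NDUFA10, an accessory subunit of complex I, ran from 22.51 to 44.98 FPKM in LDL and from 27.61 to 55.17 FPKM in control samples. Its CPM ran only from 100 to 111.4 in LDL and from 107.6 to 113.8 in control samples. FPKM values can thus depart from the counts between libraries, which limits the levels given in FPKM.

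In the comparison of LDL with control, no member passed an adjusted p of 0.05 in edgeR's quasi-likelihood test, against 10 of 15432 features (0.0648%), which were 0.0259% higher and 0.0389% lower in LDL. DESeq2 and limma on counts (voom) or FPKM also called 0 members. At an unadjusted p under 0.05 in edgeR, 7 of 96 members (7.29%) passed, 4 mitochondrially encoded ones lower and 3 nuclear genes higher in LDL, against 5.59% of all features, 2.72% lower and 2.88% higher. The 95% interval of the fold change lay within 1.2-fold either way for 65 of 96 members (67.7%), against 46.6% of all features. It lay within 1.5-fold for 94 members, against 76.3% of all features, the exceptions being COX7A1 and NDUFA4L2.

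The signs of the fold changes split by genome. All 13 mitochondrially encoded subunits were below 0 on the log2 fold change scale, between -0.24 and -0.04, and their median was -0.0762. Among nuclear subunits 66 of 79 were above 0, with a median of 0.0456 and a range from -0.12 to 0.18. Over all features the median was 0.00603, with 47.7% below 0 and 52.3% above. These are descriptions of small differences, since no single subunit passed the adjusted test. The nuclear part of the split depended on feature length and GC content. After a correction for both, chosen after seeing the data and described below, 36 of 79 nuclear subunits were above 0. All 13 mitochondrially encoded subunits stayed below 0.

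**Figure D2:**
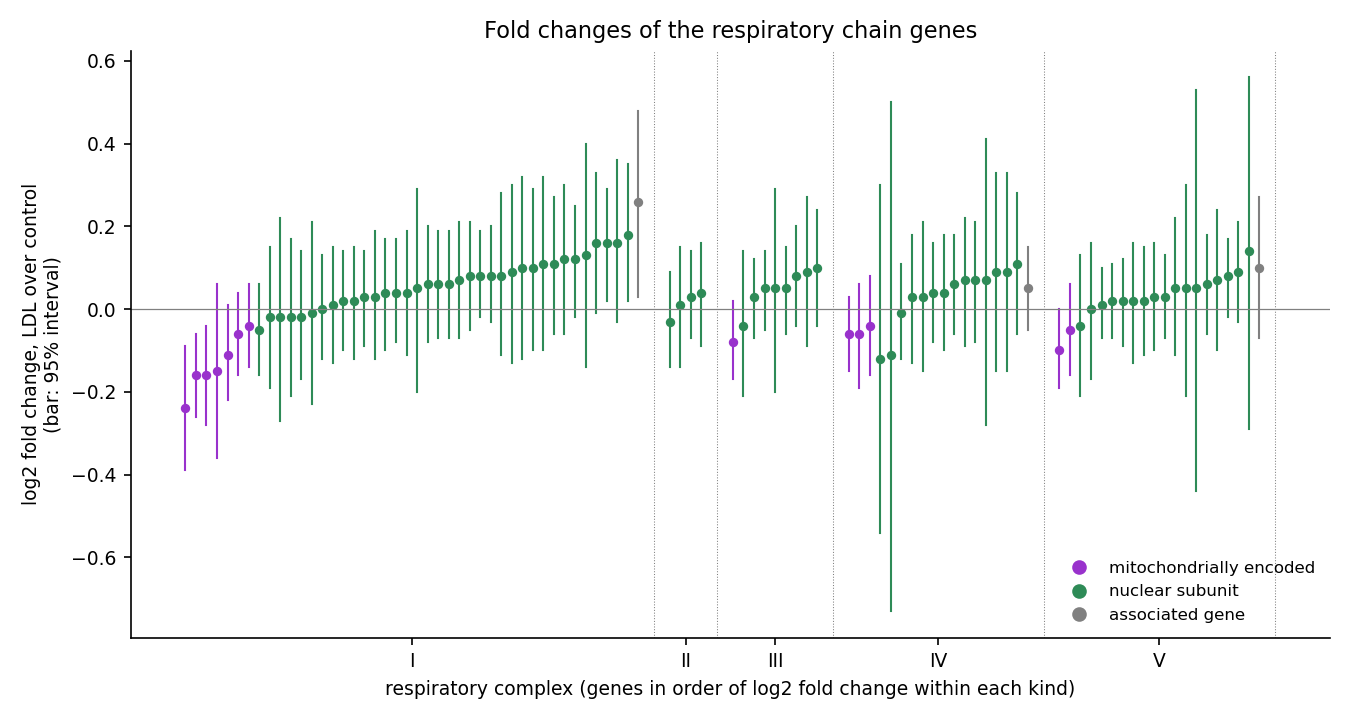
Log2 fold change, LDL over control, with its 95% interval (edgeR) for the tested members by complex, except NDUFA4L2 at 0.70 (-0.23 to 1.64), which is not drawn. The mitochondrially encoded subunits lie between -0.24 and -0.04 and the nuclear subunits between -0.12 and 0.18.

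Among the mitochondrial subunits of complex I, MT-ND5, an antiporter-like proton channel subunit of its membrane arm, had the lowest fold change. Its values were 1572, 1391, 1371 and 1181 CPM in LDL samples 1 to 4, against 1561, 1621, 1631 and 1699 CPM in control samples 1 to 4. LDL samples 2 to 4 lay below every control, while LDL sample 1 lay among them. The log2 fold change was -0.24 (SE 0.0685, unadjusted p = 0.00351, adjusted p = 0.570 in edgeR's quasi-likelihood test). As a share of all mitochondrial subunit counts, MT-ND5 made up 5.946, 4.813, 4.799 and 4.41% in LDL samples and 5.405, 5.679, 5.615 and 5.633% in control samples. In LDL sample 1 the gene therefore held a higher share than in any control, and in LDL samples 2 to 4 a lower one.

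MT-ND4L, a small membrane subunit of complex I, had 543.9, 516.5, 531.0 and 493.3 CPM in LDL samples 1 to 4, against 564.7, 564.8, 606.5 and 595.3 CPM in control samples. Every LDL sample was below every control, and the log2 fold change was -0.16 (SE 0.0463, unadjusted p = 0.00293, adjusted p = 0.538 in edgeR's quasi-likelihood test). Its downstream partner MT-ND4 had 3160, 3633, 3518 and 3417 CPM in LDL samples and 3602, 3487, 3534 and 3670 CPM in control samples, and these overlapped, with a log2 fold change of -0.06. The ratio of MT-ND4L to MT-ND4 counts, 0.172, 0.142, 0.151 and 0.144 in LDL samples, overlapped the 0.157 to 0.172 of control samples.

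MT-ND6, the one subunit encoded on the light strand, had 439.4, 515.3, 482.3 and 421.7 CPM in LDL samples and 522.6, 540.0, 499.5 and 511.3 CPM in control samples. LDL samples 1, 3 and 4 lay below every control and LDL sample 2 among them (log2 fold change -0.16, SE 0.0576, unadjusted p = 0.0143, adjusted p = 0.817 in edgeR's quasi-likelihood test). The remaining complex I subunits of the mitochondrial genome overlapped between groups. MT-ND1, which helps form the quinone site, was at -0.11, MT-ND3 at -0.15 and the antiporter-like MT-ND2 at -0.04 on the log2 fold change scale.

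MT-CYB, the cytochrome b of complex III, had 1634, 1779, 1774 and 1633 CPM in LDL samples and 1799, 1752, 1786 and 1853 CPM in control samples. The groups overlapped through LDL samples 2 and 3, and the log2 fold change was -0.08. The complex IV core subunits were nearer to 0, with MT-CO1 and MT-CO2, which hold its copper and haem centres, at -0.06 each and MT-CO3 at -0.04, all overlapping.

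MT-ATP8 had 885.4, 932.9, 923.6 and 838.2 CPM in LDL samples 1 to 4, against 957.3, 971.6, 949.1 and 956.5 CPM in control samples. It was the second member without overlap, with every LDL sample lower (log2 fold change -0.10, SE 0.0448, unadjusted p = 0.0413, adjusted p = 0.878 in edgeR's quasi-likelihood test). Among all features 1.71% were lower in LDL without overlap and 1.74% higher. MT-ATP6, which shares the 46 bases and forms the proton channel, had 2703, 3127, 3085 and 2820 CPM in LDL samples and 3105, 2986, 2970 and 3106 CPM in control samples, which overlapped (log2 fold change -0.05).

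**Figure D3:**
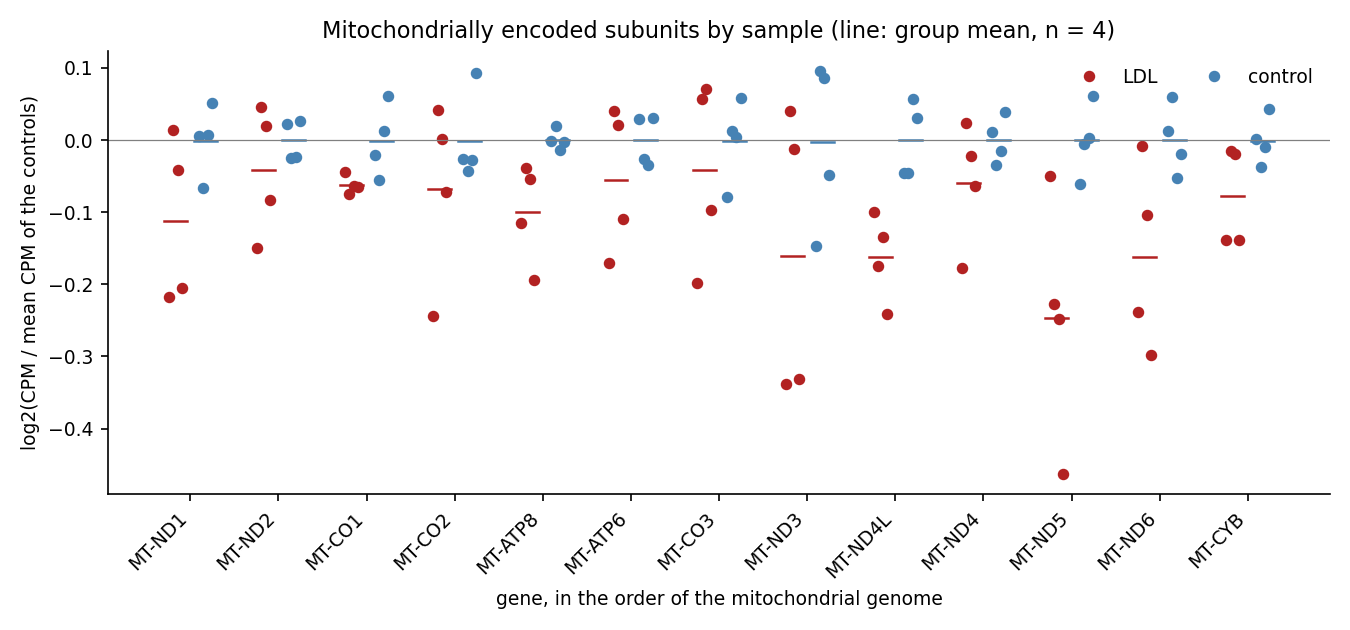
Log2 of CPM over the mean of the controls for the 13 mitochondrially encoded subunits in genome order, LDL samples on the left and control samples on the right of each gene, with lines at the group means (n = 4). MT-ATP8 and MT-ND4L are the 2 genes without overlap, and MT-ND5 has the lowest LDL mean.

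Summed over the 13 genes, mitochondrial subunits took 2.657, 2.867, 2.851 and 2.687% of all counts in LDL samples 1 to 4, against 2.892, 2.877, 2.895 and 2.994% in control samples 1 to 4. Every LDL share was lower than every control share, with LDL sample 2 and control sample 2 the closest. The means were 2.766 ± 0.1085% in LDL and 2.915 ± 0.05372% in control samples (SD, n = 4 each). Counts in these libraries cannot tell fewer mitochondrial transcripts per cell apart from more RNA of other genes. Mitochondrial ribosomal and transfer RNAs were not analysed here.

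The 36 tested nuclear subunits of complex I had a median log2 fold change of 0.0615, with 30 above 0. Without LDL sample 1 the medians of the nuclear subunits were 0.106 in complex I, 0.0408 in complex II, 0.0993 in complex III, 0.116 in complex IV and 0.0916 in complex V, each more than 1.5 times its value with all 8 samples. Without LDL sample 4 they were 0.0538, -0.00267, 0.0345, 0.0288 and 0.0214 in complexes I to V. The 7 core subunits, which carry the flavin and most iron-sulphur centres, had a median of 0.0615 and the 29 accessory subunits one of 0.0711. NDUFV3, an accessory subunit of the NADH-binding module, had 24.1, 27.29, 27.6 and 26.64 CPM in LDL samples and 21.57, 23.58, 22.45 and 25.48 CPM in control samples. Only LDL sample 1 reached into the control range, and the log2 fold change was 0.18 (SE 0.0781, unadjusted p = 0.0327).

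NDUFB11, an accessory subunit of the membrane arm, had 74.46, 85.64, 89.98 and 77.07 CPM in LDL samples and 72.32, 73.5, 69.77 and 78.18 CPM in control samples. The groups overlapped, with LDL samples 2 and 3 above every control (log2 fold change 0.16, SE 0.0652, unadjusted p = 0.0297). NDUFB8, another membrane arm subunit, was likewise at 0.16. At the other end, NDUFA10, an accessory subunit of the matrix-facing side of the membrane arm, was at -0.05. The read-through gene NDUFC2-KCTD14, which shares exons with NDUFC2, was at 0.26 (unadjusted p = 0.0264), and reads of the 2 genes may have been divided between them, so its value is uncertain.

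Complex II is encoded by the nucleus alone and its 4 subunits were nearest to 0. The log2 fold changes were 0.03 for SDHA, the flavoprotein, 0.04 for SDHB, the iron-sulphur subunit, -0.03 for SDHC and 0.01 for SDHD, the membrane anchors, with a median of 0.0192. SDHA had 174.9, 178.0, 175.7 and 178.9 CPM in LDL samples and 161.8, 169.7, 184.6 and 175.7 CPM in control samples, so the LDL values lay inside the control range.

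Complex III had 7 of 8 tested nuclear subunits above 0, with a median of 0.0465. CYC1, cytochrome c1, was at 0.08, with 162.5, 175.7, 173.4 and 194.4 CPM in LDL samples and 163.8, 160.7, 171.7 and 171.7 CPM in control samples. UQCRQ, a small accessory subunit, was at 0.10 and UQCR10, another, at -0.04. In UQCRQ LDL samples 2 to 4, at 112.5 to 118.1 CPM, were above the control range of 100.8 to 105.0 CPM, and LDL sample 1, at 92.63 CPM, was below it.

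Complex IV had 11 of 14 tested nuclear subunits above 0, with a median of 0.0493. COX7B was at 0.11, with 50.93, 67.10, 67.83 and 66.45 CPM in LDL samples and 57.95, 58.00, 60.96 and 57.19 CPM in control samples. As in UQCRQ, LDL sample 1 lay below every control and LDL samples 2 to 4 above. NDUFA4, now known as a complex IV subunit, was at 0.04, while its paralog NDUFA4L2, a hypoxia-responsive gene, was at 0.70 (unadjusted p = 0.129) with 0.487, 0.552, 0.721 and 0.517 CPM in LDL samples and 0.339, 0.374, 0.155 and 0.516 CPM in control samples, which overlapped narrowly. COX7A2L, which promotes the joining of complexes III and IV, was at 0.05.

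Complex V had 15 of 17 nuclear subunits above 0, with a median of 0.033. ATP5F1C, the gamma subunit of the rotating shaft, was at 0.08 and ATP5PO, the subunit that joins the peripheral stalk to the F1 head, at 0.09. ATP5F1E, the epsilon subunit, had 42.84, 69.40, 74.72 and 76.56 CPM in LDL samples and 59.64, 60.75, 62.87 and 56.58 CPM in control samples. LDL samples 2 to 4 lay above the controls and LDL sample 1 below, which gave a log2 fold change of 0.14 with an interval from -0.29 to 0.56.

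That split recurred across the nuclear subunits. LDL sample 1 was the lowest of the 8 libraries for 54 of 79 nuclear subunits (68.4%), against 15.8% of all features. LDL samples 2 to 4 lay above all 4 controls for 30 of the 79 (38.0%), against 7.21% of all features, and below them for 0, against 7.10%. Averaged over the 79 genes as log2 CPM relative to the control mean, the level was -0.159, 0.0971, 0.118 and 0.112 in LDL samples 1 to 4 and between -0.00987 and 0.0124 in control samples. The mitochondrially encoded mean was -0.167, -0.0207, -0.0443 and -0.181 in LDL samples and between -0.0223 and 0.0333 in control samples.

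The difference of the mitochondrial and the nuclear mean was -0.00796, -0.118, -0.163 and -0.293 in LDL samples 1 to 4 and -0.0124, -0.00198, -0.0122 and 0.0266 in control samples. LDL samples 2 to 4 were lower than every control and LDL sample 1 lay among them. The LDL mean was -0.145 ± 0.118 (SD, n = 4), against a control SD of 0.0184. Without LDL sample 1 the difference was -0.191, and without LDL sample 4, the lowest, -0.0961. On summed counts, which the most abundant genes govern, the mitochondrial to nuclear ratio was 3.604, 3.458, 3.428 and 3.234 in LDL samples and 3.714, 3.722, 3.678 and 3.778 in control samples, where the groups did not overlap.

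**Figure D4:**
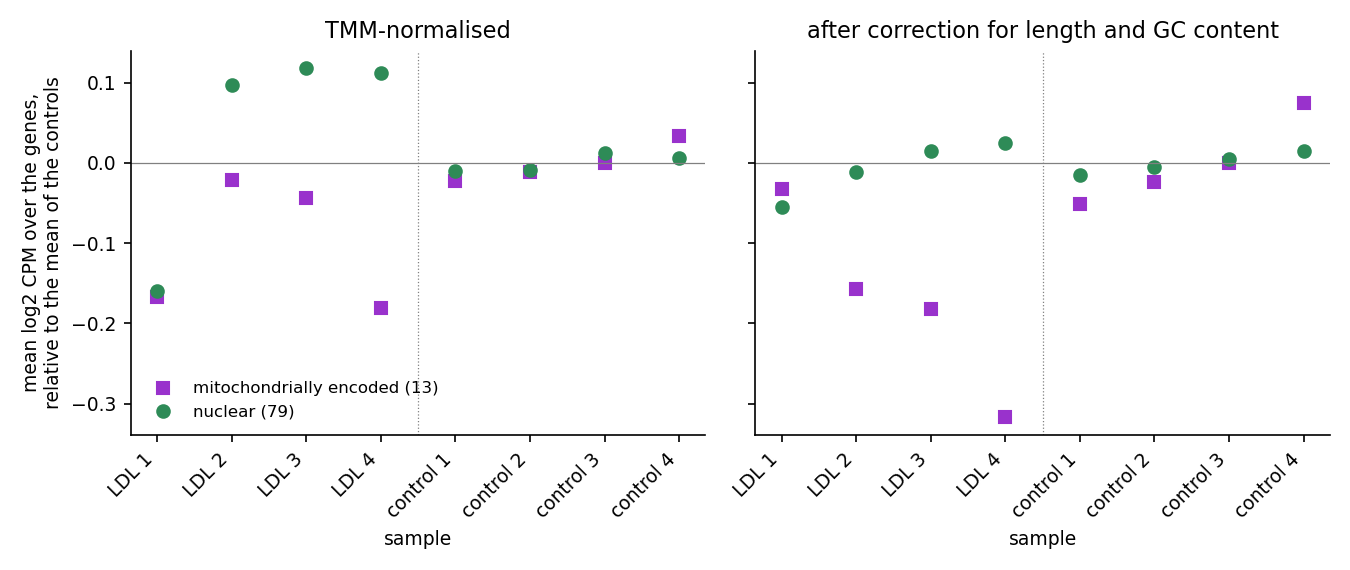
Mean log2 CPM over 13 mitochondrially encoded (squares) and 79 nuclear subunits (circles) in each sample, relative to the mean of the controls, LDL samples left of the dotted line, before and after a correction for length and GC content. Before correction the nuclear level is -0.159 in LDL sample 1 and 0.0971 to 0.118 in LDL samples 2 to 4; after it the nuclear level is -0.0552 to 0.025 in LDL samples.

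Without LDL sample 1, edgeR's quasi-likelihood test called 149 of 15625 features (0.954%) and 3 of 97 members (3.09%). MT-ND5 fell, with a log2 fold change of -0.31 (SE 0.0527, adjusted p = 0.0175), and ATP5F1E rose, with 0.30 (SE 0.0567, adjusted p = 0.0248). MT-ND4L fell by 0.18 on the log2 scale (SE 0.0425, adjusted p = 0.05, just inside the threshold before rounding). Of the nuclear subunits 75 of 79 were then above 0, with a median of 0.104, and 32 passed an unadjusted p under 0.05 upward, against 7.33% of all features. Of the mitochondrial subunits 12 of 13 were below 0, with a median of -0.0675, and 4 passed an unadjusted p under 0.05 downward, against 7.22% of all features. Without LDL sample 4 no member was called, against 0.166% of all features. Of the nuclear subunits 60 of 79 were then above 0 with a median of 0.0304, and 13 of 13 mitochondrial subunits were below 0 with a median of -0.0617. The calls made without LDL sample 1 were lost with all 8 samples, where the adjusted p was 0.570 for MT-ND5 and 0.538 for MT-ND4L. Over the other alternatives edgeR, DESeq2 and limma gave an adjusted p of 0.127 to 1.0 for MT-ND5, 0.132 to 1.0 for MT-ND4L and 0.944 to 1.0 for ATP5F1E.

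Feature length moved with these levels. Nuclear subunits had a median length of 785 bases as implied by the FPKM values, against 3378 bases for 10029 other features of at least 10 CPM, and 45 of 79 were under 1000 bases. Among 443 other features of 500 to 1000 bases, the median level relative to the controls was -0.0992, 0.135, 0.129 and 0.0895 in LDL samples 1 to 4, the same pattern of signs as in the nuclear subunits. Among 726 features over 8000 bases it was 0.0715, -0.101, -0.0834 and -0.0718 in LDL samples, the opposite signs.

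**Figure D5:**
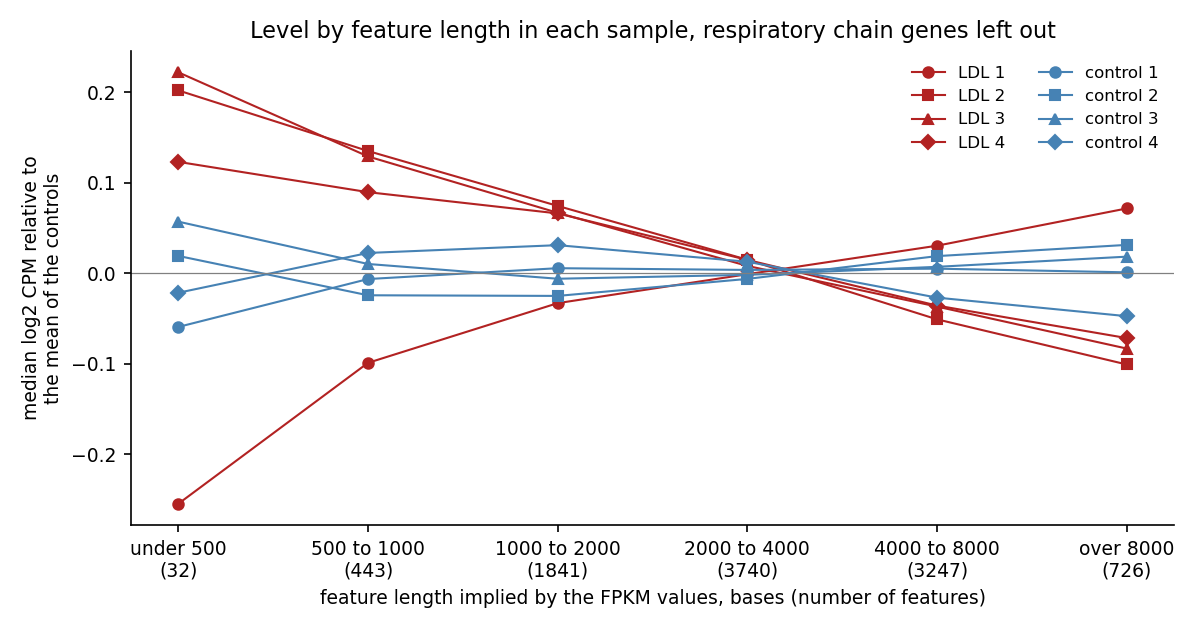
Median log2 CPM relative to the mean of the controls by implied feature length, for each sample, with the members left out. LDL samples 2 to 4 lie at 0.0895 to 0.135 for features of 500 to 1000 bases, where LDL sample 1 lies at -0.0992; for features over 8000 bases the signs are the other way round.

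A smooth correction of each library for length and GC content, chosen after seeing the data, took the nuclear median log2 fold change to -0.00198, with 36 of 79 subunits above 0. The mitochondrial median became -0.135, with 13 of 13 below 0. The corrected nuclear level was -0.0552, -0.0107, 0.0152 and 0.025 in LDL samples and between -0.0149 and 0.0153 in control samples. The corrected mitochondrial level was -0.032, -0.157, -0.182 and -0.317 in LDL samples 1 to 4 and -0.051, -0.0237, -0.000546 and 0.0752 in control samples. LDL samples 2 to 4 lay below every control and LDL sample 1 among them, and no member was called among 22 called features. Mitochondrial messengers are short too, so their corrected level depends on a curve fitted on the features outside the member list.

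Genes that build and supply the chain were described from lists beside the members, and edgeR's quasi-likelihood test called none of their genes with all 8 samples. Assembly factors had 36 of 52 above 0 with a median log2 fold change of 0.0569, and mitochondrial ribosomal proteins, which translate the mitochondrial messengers, 59 of 75 with 0.0476. The assembly factor with the smallest p was UQCC3, which acts in complex III assembly, with 18.09, 21.77, 15.17 and 24.46 CPM in LDL samples and 15.54, 8.94, 15.71 and 12.61 CPM in control samples, which overlapped (log2 fold change 0.59, adjusted p = 0.822 in edgeR's quasi-likelihood test). In the ribosomal list it was MRPL52, at 0.22. Without LDL sample 1 the medians were 0.11 for assembly factors, with 39 of 52 above 0, and 0.0992 for ribosomal proteins, with 65 of 75 above 0. In that comparison edgeR's quasi-likelihood test called MRPL52 (log2 fold change 0.31, adjusted p = 0.0334) and MRPL21 (0.30, adjusted p = 0.0366), both proteins of the large ribosomal subunit. Without LDL sample 4 the medians were 0.0269 for assembly factors and 0.0253 for ribosomal proteins, with no call. The levels of these 2 lists in LDL sample 1 were -0.0884 and -0.108, below all controls, like the nuclear subunits.

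Lists on mitochondrial DNA and its expression gave small medians. Transcription and RNA processing genes had 19 of 26 above 0 with a median of 0.0434, where ELAC2, which cuts tRNA 3' ends from the polycistronic RNA, was at -0.12 (unadjusted p = 0.0365). Replication and nucleotide supply genes had 7 of 14 above 0 with a median of -0.00188. In that list TWNK, the helicase of mitochondrial DNA, had 22.02, 20.20, 18.80 and 21.79 CPM in LDL samples and 22.42, 23.98, 22.68 and 24.06 CPM in control samples. Its groups did not overlap, with every LDL sample lower (log2 fold change -0.17, unadjusted p = 0.0462, adjusted p = 0.878 in edgeR's quasi-likelihood test).

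The PGC-1 coactivators and nuclear respiratory factors, which drive nuclear subunit genes, had 4 of 8 tested genes above 0 with a median of 0.00633, and ESRRA, a nuclear receptor that works with PGC-1, was at 0.10. Electron carriers, coenzyme Q synthesis genes and exchange carriers had 10 of 26 above 0 with a median of -0.00487, led by ETFB, an electron transfer flavoprotein, at 0.16. Mitochondrial chaperones and proteases had 9 of 13 above 0 with a median of 0.043, led by HSPD1, the matrix chaperonin, at 0.12. Without LDL sample 1 the medians were -0.0289 for the coactivators and respiratory factors, 0.00769 for the carriers and 0.0187 for the replication genes, each of the opposite sign to that with all 8 samples, and no gene of these lists was called.

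A list of immediate early genes with the heat shock genes HSPA1A and HSPA1B, and markers of other cell types, were read beside the members. The first list can respond to the handling of cells, but not to handling alone. Of its 10 genes 7 were above 0, with a median of 0.125. FOSB was the one with the smallest p, at 0.99 (adjusted p = 0.512 in edgeR's quasi-likelihood test). EGR1 stood at 6.631 CPM in LDL sample 4, against 74.16 to 105 CPM in LDL samples 1 to 3, and the list's mean level was -0.47 in LDL sample 4 and 0.261 to 0.394 in LDL samples 1 to 3, against -0.129 to 0.121 in control samples. Without LDL sample 4 the median of the list was 0.218. At an unadjusted p under 0.05 in edgeR, 5 of the 10 genes passed upward, against 429 of 15619 features. In that comparison edgeR's quasi-likelihood test called IER2, an immediate early gene (log2 fold change 0.30, adjusted p = 0.012), among 26 called features (0.166%). The mean mitochondrial level was -0.181 in LDL sample 4 and -0.167 in LDL sample 1, and LDL sample 1 had the lower share of counts, 2.657% against 2.687%. The part of handling or of LDL in these levels was not tested. Of 14 markers of other cell types, PTPRC of leukocytes and HBB of red cells had 0 counts in every library. The highest count in any library was 22 for VWF, 11 for PECAM1, 10 for LYZ, 7 for HBA1, 4 for HBA2 and 2 for CD3E. The 6 tested were ACTA2, CD68, CDH5, DCN, LUM and PDGFRB. Of the fibroblast genes, LUM had 133 to 205 counts per library and DCN 35 to 83. The mean level of the 6 was between -0.398 and 0.0584 in LDL samples and between -0.124 and 0.142 in control samples, and CD68 of macrophages, with 50.53 CPM in LDL and 44.38 CPM in control samples, had the smallest p among them (adjusted p = 0.849 in edgeR's quasi-likelihood test).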

How the data were processed

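Stranded poly(A) libraries were sequenced from 8 samples, per the labels' protocols. HISAT2, featureCounts and DESeq2 1.26.0 appear in the submitters' processing notes beside GRCh38, with no roles given. The deposited counts are whole, but 55.17% of values from 1 to 20 were even, so they were handled as estimated counts; no rounding was needed. The authors scaled the deposited FPKM values to length and library size; these served for levels between genes and in alternatives. The 22554 features were fitted together in edgeR 4.0.16 under R 4.3.3, with its quasi-likelihood test (TMM, default filter, robust, group as the only term), which was tested on simulated data, with Benjamini-Hochberg adjustment and a threshold of 0.05. The log2 CPM used a prior count of 2. Every one of the 103 members matched GENCODE 29; promoters came from RefSeq.

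Members and lists were chosen with earlier results of these data known. Genes to name were drawn from the 13 mitochondrial members, isoform pairs, SDH genes and CYC1, and non-overlapping members. By complex, the genes with the smallest p in each direction and with the highest and lowest FPKM were taken. The 10 smallest p of the nuclear members and, of other lists, the smallest p were taken too. Some genes so picked, among them NDUFA11, UQCRC1, UQCRB, COX6B1, COX8A, NDUFB10, NDUFA5 and NDUFV2, are not described above. ATP5PD, NDUFB7, COX7B2, ATP5F1A, UQCRH, UQCRHL, EGR1, MRPL21 and IER2 were added after their values were seen. Alternatives were other scalings (DESeq2 size factors, upper quartile) and filters, DESeq2 1.42.0, voom and FPKM fits with limma 3.58.1, a replicate block, each sample left out in turn and, added later, a correction for length and GC content (mgcv 1.9.3). A library's total of 34682501 to 44883561 counts sets the counting error, and a count of 0 allows up to 3 counts.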

Additional observations from a re-analysis of the deposited data

Results flagged for a closer look

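Among 104 groups of 4 values examined, 9 held a sample far from the others by Dixon's test. Chance gives this in about 1 of 20 groups that are independent. These groups came from the same libraries and were not independent, so the count of 9 cannot be set against that rate. LDL sample 1 was the low one in 7 of them. It had 50.93 CPM of COX7B, against 66.45 to 67.83 CPM in LDL samples 2 to 4. COX6A1 stood at 162.4 CPM, against 200.7 to 207.3 CPM, and COX7A2 at 48.06 CPM, against 63.38 to 66.36 CPM. NDUFA4 stood at 62.72 CPM, against 74.72 to 77.01 CPM, and ATP5MF, a membrane subunit of ATP synthase, at 28.26 CPM, against 34.67 to 35.44 CPM. All 5 encode short proteins of complexes IV and V. The nuclear subunits together, these 5 included, took 0.7374% of the counts of LDL sample 1, against 0.83% in each of LDL samples 2 to 4. Their mean level was -0.159, against 0.0971 to 0.118.

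Control sample 4 was the high one in the other 2 groups. MT-CO2 had 2743 CPM there, against 2496 to 2525 CPM in control samples 1 to 3. The mitochondrially encoded subunits, MT-CO2 included, took 2.994% of the counts of control sample 4, against 2.877 to 2.895%. The library of control sample 4 was also the deepest of the 8, with 44883561 counts.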

How the results depend on the processing

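Over 20 alternatives, counts of all called features moved while those of members mostly did not. DESeq2 called 50 features, the replicate block 2, limma on log2(FPKM + 0.1) 5, on log2(FPKM + 1) with no minimum 2, and the correction for length and GC content, chosen after seeing the data, 22, against 10. Leaving out 1 sample gave 2 to 149 calls; 149 came without LDL sample 1 and 26 without LDL sample 4. Members called were 0 under each alternative except without LDL sample 1, so that leaving out 1 sample gave 0 to 3; which property of that library decides this was not tested. The mitochondrial median log2 fold change was between -0.135 and -0.0617, the nuclear one between -0.00198 and 0.104 and the difference of the 2 means between -0.191 and -0.0961. The nuclear median was below 0 in 1 alternative, the correction. Samples with the same number deviated together with correlations of -0.101, 0.0602, 0.0321 and -0.00433, so the numbers were not read as pairs. The block changed no call of a member. Depth limits COX4I2, COX6A2 and COX8C, which had at most 2 counts in any library.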
